A study of Mus musculus with 35 samples.

Results

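The genes described here carry glucose into cells, break it down by glycolysis, decide between lactate and mitochondrial pyruvate, or are well known targets of the hypoxia-inducible factors (HIF). They were measured in mouse retina during diabetes, with and without removal and return of microglia, which are the immune cells that live in the retina. The genes were chosen by name, with earlier results of these data known. The shares of members called are therefore set beside those of all genes as a description only. Of 32 names looked up among the 25655 genes of the authors' tables, 31 were found, all with a test in all 8 comparisons. Aldoa, which encodes the aldolase isoform of most tissues, is listed under a pair of suffixed names, so it was not counted as a member, and the values of the annotated chromosome 7 gene are given apart.

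Stranded poly(A) RNA sequencing was done on retinas of wild-type mice, which the series text calls CX3CR1-WT, in 35 samples of 7 groups. D6, D8 and D10 are retinas after 6, 8 and 10 weeks of diabetes, with 5 samples each, and the labels add PBS for D8 and D10 but not for D6. D8 depleted (4 samples) had 8 weeks of diabetes with microglia depletion for 2 weeks, and D10 repopulated (5 samples) had 10 weeks of diabetes with 2 weeks of depletion followed by 2 weeks of recovery. ND repopulated (5 samples) had the same depletion and recovery without diabetes, and ND (6 samples) is the non-diabetic group. The labels give DTx as the depleting agent and the series text gives PLX-5622, so the agent is not settled by the sources used here. Neither source says how diabetes was induced, gives an age, or says whether each sample is a separate animal, so the p-values may measure technical spread only. The sample titles number the D8 and D10 libraries in one run and the other 5 groups in another, and the meaning of these numbers is not stated.

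Glycolysis splits glucose into pyruvate through a chain of cytosolic enzymes. Photoreceptors of the retina send most of their pyruvate to lactate even when oxygen is plentiful, and the transporters, hexokinase, lactate dehydrogenase and monocarboxylate carriers are abundant in this tissue. HIF is a transcription factor whose alpha subunit is destroyed in the presence of oxygen, after prolyl hydroxylation and recognition by the VHL protein. When oxygen is low, HIF binds hypoxia response elements and raises transcription of most glycolytic enzymes, of the pyruvate dehydrogenase kinase Pdk1 and of the lactate exporter Slc16a3.

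The core letters of the hypoxia response element are ACGTG or GCGTG, read on either strand, so that CACGT and CACGC are the same letters on the opposite strand. Promoters of 29 members were found in the RefSeq promoter table (build GRCm38.p6), from 250 bases before to 50 bases after the annotated start. At least 1 such motif stood in the first listed promoter of 23 of the 29 (79.3%), against 11836 of 27025 genes (43.8%) in the whole table. The palindrome CACGTG, which is also an E-box, holds the motif on both strands and was counted once for each. A match is a description of letters and not of a bound site. The members were chosen in part as known HIF targets, and the 2 shares were not matched for the base content of the promoters. The promoters of the 5 members that were lower in 4 comparisons are printed, a choice made by those calls. That of Ldha is printed because it holds 7 matches although Ldha never passed the test. No motif stood in the first promoters of Hk1, Gpi1, Tpi1, Eno2, Pkm and Vldlr, of which Tpi1 was lower in 3 comparisons and Pkm in 1. Capitals mark the motifs, and each sequence reads in the direction of its gene.
Pfkl: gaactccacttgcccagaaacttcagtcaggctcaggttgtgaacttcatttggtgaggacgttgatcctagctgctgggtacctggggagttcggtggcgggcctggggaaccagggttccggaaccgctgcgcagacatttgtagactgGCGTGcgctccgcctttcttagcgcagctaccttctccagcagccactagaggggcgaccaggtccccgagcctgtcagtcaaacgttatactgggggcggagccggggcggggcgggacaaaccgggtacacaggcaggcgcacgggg
Pgam1: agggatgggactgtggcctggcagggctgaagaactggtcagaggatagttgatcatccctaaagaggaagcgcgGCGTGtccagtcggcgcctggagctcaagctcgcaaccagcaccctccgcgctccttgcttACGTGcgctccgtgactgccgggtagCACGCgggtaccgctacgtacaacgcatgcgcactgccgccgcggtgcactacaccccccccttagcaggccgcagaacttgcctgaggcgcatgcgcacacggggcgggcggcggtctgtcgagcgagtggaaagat
Pdk1: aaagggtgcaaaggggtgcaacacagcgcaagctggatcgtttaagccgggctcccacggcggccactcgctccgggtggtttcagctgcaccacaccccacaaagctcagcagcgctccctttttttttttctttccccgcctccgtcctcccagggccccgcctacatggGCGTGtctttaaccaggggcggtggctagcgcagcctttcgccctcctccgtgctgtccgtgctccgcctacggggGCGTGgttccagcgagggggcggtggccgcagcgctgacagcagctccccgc
Slc16a3: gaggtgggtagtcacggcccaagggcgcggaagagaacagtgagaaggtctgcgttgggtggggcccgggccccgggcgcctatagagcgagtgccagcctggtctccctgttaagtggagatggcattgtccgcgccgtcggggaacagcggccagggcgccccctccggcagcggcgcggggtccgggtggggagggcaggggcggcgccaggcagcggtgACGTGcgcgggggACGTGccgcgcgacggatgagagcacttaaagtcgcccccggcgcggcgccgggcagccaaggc
Ak4: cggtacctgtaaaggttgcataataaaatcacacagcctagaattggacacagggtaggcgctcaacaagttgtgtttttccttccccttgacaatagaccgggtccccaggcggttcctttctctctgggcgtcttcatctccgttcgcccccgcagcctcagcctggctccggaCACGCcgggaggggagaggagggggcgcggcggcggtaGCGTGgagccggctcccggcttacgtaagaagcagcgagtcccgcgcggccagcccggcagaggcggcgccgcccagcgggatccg
Ldha: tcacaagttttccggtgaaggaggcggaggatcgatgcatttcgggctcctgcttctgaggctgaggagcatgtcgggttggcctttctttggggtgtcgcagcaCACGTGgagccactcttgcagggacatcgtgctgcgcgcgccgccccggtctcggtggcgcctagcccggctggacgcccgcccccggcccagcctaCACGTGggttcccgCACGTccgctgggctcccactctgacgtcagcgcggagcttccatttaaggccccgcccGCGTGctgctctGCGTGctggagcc
In GRCm38.p6 these windows are chr10:78009758-78010057 on the minus strand for Pfkl, chr19:41911621-41911920 on the plus strand for Pgam1 and chr2:71872974-71873273 on the plus strand for Pdk1. They are chr11:120948817-120949116 on the plus strand for Slc16a3, chr4:101419039-101419338 on the plus strand for Ak4 and chr7:46845554-46845853 on the plus strand for Ldha. Pfkl held 1 motif, Pgam1 held 3, and Pdk1, Slc16a3 and Ak4 held 2 each. The genes themselves lie, in the coordinates of the authors' deposited tables (GRCm39), at chr10:77822781-77845917 for Pfkl, chr19:41900362-41907099 for Pgam1 and chr2:71703568-71734202 for Pdk1. In the same build Slc16a3 lies at chr11:120839306-120851694, Ak4 at chr4:101276474-101324192 and Ldha at chr7:46490899-46505051.

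All values below come from the authors' deposited tables, which give for each gene and pair of groups a log2 fold change, the larger of the 2 group means, a p-value and an FDR p-value. A gene was called when its FDR p-value, given below as the adjusted p, was under 0.05. The error beside a log2 fold change is the standard error implied by the deposited p (the log2 divided by the matching normal quantile). Over the 31 members it ran between 0.0995 and 0.465. Values per sample and sequencing depth were not analysed here. In whole retina, fewer cells of a type and less RNA per cell cannot be told apart.

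After 6 weeks of diabetes some of the members, from several steps of glycolysis and from the HIF targets, were lower than in non-diabetic retina. Of the 31 members 13 fell (41.9%) and none rose in D6 against ND, where 9.31% of all 17876 tested genes fell and 14.1% rose. Among the 10725 genes above the lowest 40 percent of level, 12.9% fell. The median log2 fold change was -0.33 over the members and 0.04 over all tested genes. The largest falls were in Ak4, Slc16a3 and Pfkl, and 25 of the 31 members had a log2 fold change below 0.

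**Figure D1:**
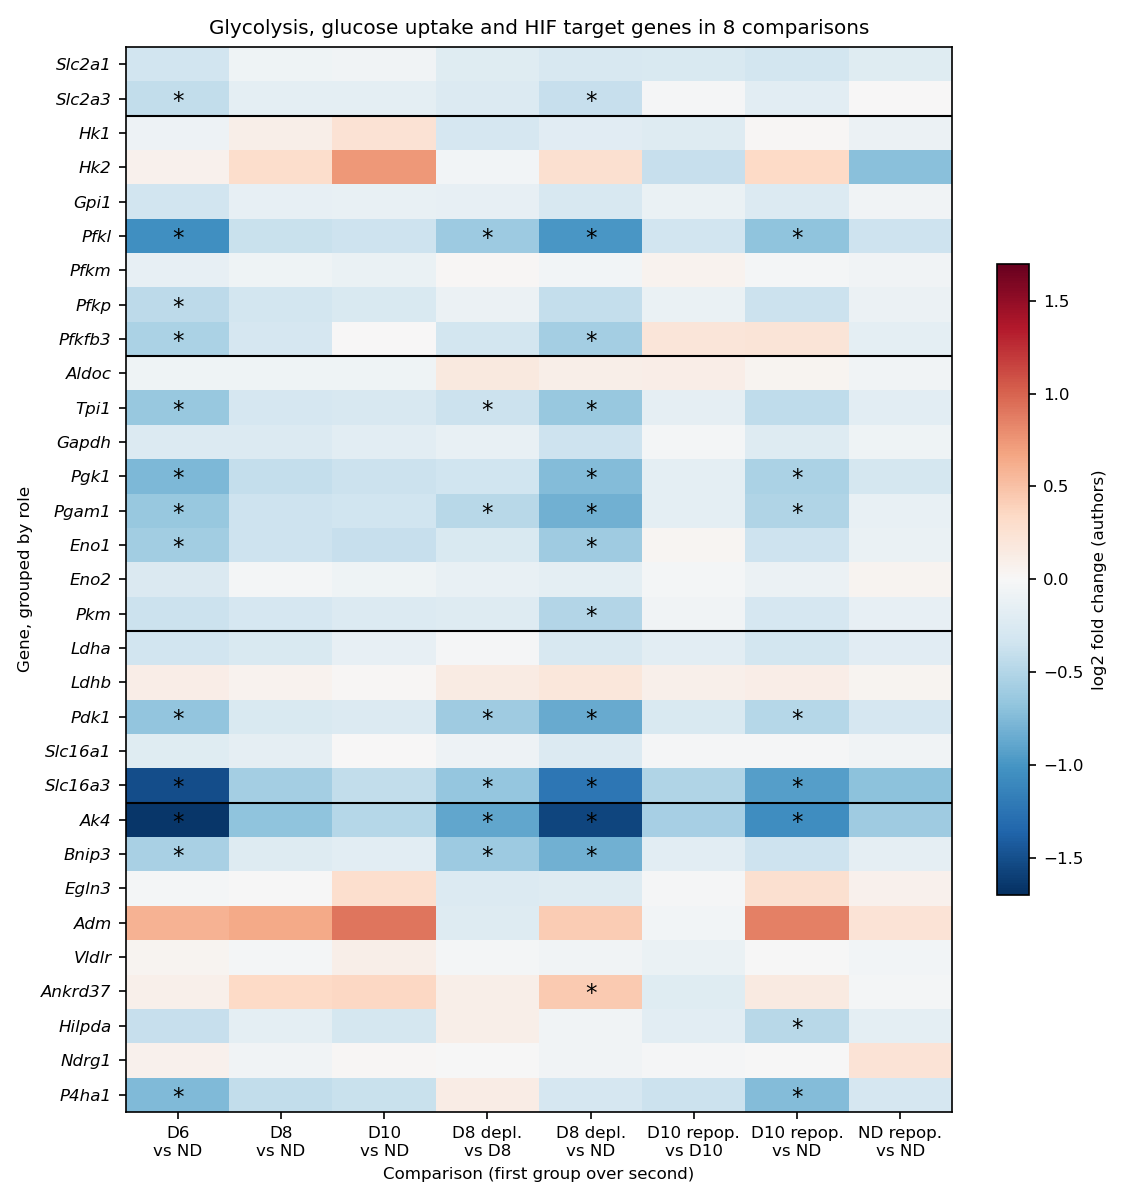
Log2 fold changes of the 31 members (rows, grouped by role and divided by lines in the order glucose transporters, hexokinase to phosphofructokinase, aldolase to pyruvate kinase, lactate and pyruvate fate, HIF targets outside glycolysis) in the 8 comparisons (columns). Blue is lower in the first named group, red is higher, and a star marks an adjusted p under 0.05: the D6 and D8 depleted columns against ND hold 13 and 13 stars, and the D8, D10 and ND repopulated columns against ND hold none.

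Of the 2 glucose transporters, Slc2a3 fell at 6 weeks in the authors' deposited table, with a log2 fold change of -0.42 ± 0.114 (adjusted p = 0.00249). Slc2a1, the transporter of the blood-retina barrier and of photoreceptors, was at -0.32 ± 0.127 (the authors' adjusted p = 0.0504) and did not pass. Of the 7 genes from hexokinase to phosphofructokinase, 3 fell, and these act at the committed step. Pfkl, the liver-type phosphofructokinase subunit, fell 2.05-fold, at -1.04 ± 0.223 (the authors' adjusted p = 9.22e-05) on the log2 scale. Pfkfb3, which makes the activator fructose 2,6-bisphosphate, was at -0.54 ± 0.16 (adjusted p = 0.00608), and Pfkp, the platelet-type subunit, was at -0.45 ± 0.157 (adjusted p = 0.0226) in the authors' deposited table. Pfkm, the muscle-type subunit, was at -0.14 ± 0.0995 and the hexokinases Hk1 and Hk2 were at -0.08 ± 0.179 and 0.07 ± 0.262, all of them without a call. Gpi1, the isomerase after hexokinase, had a log2 fold change of -0.33 ± 0.165 (adjusted p = 0.136) per the authors' deposited table.

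Of the 8 genes from aldolase to pyruvate kinase, 4 fell at 6 weeks, and all 8 log2 fold changes were below 0. Pgk1, which makes the first ATP of the pathway, was at -0.76 ± 0.164 (adjusted p = 9.84e-05) in the authors' deposited table. Tpi1, the triose phosphate isomerase, was at -0.65 ± 0.182 (adjusted p = 0.00373), Pgam1, the phosphoglycerate mutase, at -0.65 ± 0.177 (adjusted p = 0.00296) and Eno1, the widely expressed enolase, at -0.59 ± 0.155 (adjusted p = 0.00189) in the authors' deposited table. Pkm, the pyruvate kinase, was just outside the threshold at -0.37 ± 0.148 (adjusted p = 0.0549) per the authors' deposited table, and inside it when a trend of fold change with transcript length and GC content was removed (adjusted p = 0.0451). Gapdh was at -0.23 ± 0.152, the neuronal enolase Eno2 at -0.24 ± 0.149 and the brain-type aldolase Aldoc at -0.07 ± 0.15, with adjusted p of 0.275, 0.239 and 0.77. The uncounted Aldoa gene on chromosome 7 had a log2 fold change of -0.58 ± 0.163 (the authors' adjusted p = 0.00379) in D6 against ND. Its second entry, at a larger group mean of 0.785 against 1257 for the chromosome 7 gene, was at 0.21 ± 0.345. Glycolytic genes have near-identical copies elsewhere in the genome, and how the authors counted reads shared with such copies is not given in the sources used here.

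Of the 5 genes that set the fate of pyruvate and lactate, Pdk1 and Slc16a3 fell. Slc16a3, the lactate exporter MCT4, fell 2.84-fold, at -1.50 ± 0.292 (adjusted p = 1.16e-05) on the log2 scale in the authors' deposited table. Pdk1, the kinase that switches off pyruvate dehydrogenase, was at -0.66 ± 0.144 (adjusted p = 0.000106) in the authors' deposited table. The lactate dehydrogenase subunits went without a call, Ldha at -0.33 ± 0.175 (adjusted p = 0.167) and Ldhb at 0.11 ± 0.101 (adjusted p = 0.458) per the authors' deposited table. Slc16a1, the carrier MCT1, was at -0.21 ± 0.116 (adjusted p = 0.185) in the authors' deposited table. Ldhb was the 1 member among these 5 whose log2 fold change was above 0 in all 8 comparisons, between 0.02 and 0.20.

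Of the 9 HIF targets outside glycolysis, 3 fell at 6 weeks and none rose, 4 of the 9 were above 0, and the median was -0.04. Ak4, a mitochondrial adenylate kinase, fell 3.13-fold, at -1.65 ± 0.312 (adjusted p = 6.89e-06) on the log2 scale in the authors' deposited table. P4ha1, a collagen prolyl hydroxylase subunit, was at -0.74 ± 0.164 (adjusted p = 0.000134), and Bnip3, a receptor for removal of mitochondria, was at -0.55 ± 0.142 (adjusted p = 0.00153) per the authors' deposited table. Hilpda, a lipid droplet protein, was at -0.39 ± 0.169 (the authors' adjusted p = 0.0791), outside the threshold, and passed it when the length and GC trend was removed (adjusted p = 0.0297). Adm, the vasodilator peptide adrenomedullin, was at 0.59 ± 0.352 (the authors' adjusted p = 0.221) with the widest error of the group. Egln3, a HIF prolyl hydroxylase, Vldlr, a lipoprotein receptor, Ankrd37 and Ndrg1 had log2 fold changes between -0.04 and 0.08 and adjusted p between 0.738 and 0.932.

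After 8 and 10 weeks of diabetes no member was called. In D8 against ND the count was 0 of 31, with 2.33% of all tested genes called higher and 0.583% lower. There 7 members had an unadjusted p under 0.05 and the median log2 fold change of the members was -0.17. In D10 against ND the count was 0 of 31, with 5.59% of all tested genes called higher and 1.41% lower. There 6 members had an unadjusted p under 0.05 and the median was -0.13. All 8 genes from aldolase to pyruvate kinase were below 0 at both times, with medians of -0.28 in D8 and -0.25 in D10. These 2 comparisons share the ND samples with each other and with D6 against ND. They also set libraries of the 2 numbered runs of titles against each other, so run and group cannot be told apart there.

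The deposited group means, whose unit is not stated, show the size of these shifts within a gene. Pgk1 had a mean of 272 in D8 (76.8% of ND) and 277 in D10 (78.0%), against 354 in ND, and its adjusted p were 0.212 and 0.196. Slc16a3 had a mean of 9.11 in D8 and 10.1 in D10, against 13.3 in ND, which is 68.3% and 75.3% of ND. Ak4 had a mean of 6.89 in D8 and 7.82 in D10, against 10.9 in ND, with adjusted p of 0.331 and 0.487. Both genes were lower on average in D8 and D10 than in ND, without a call in either table. Hk2, the inducible hexokinase, had higher means in diabetic retina, without a call: its mean was 76.7 in D8 and 103 in D10, against 61.2 in ND. At 10 weeks its log2 fold change was 0.74 ± 0.262 (the authors' adjusted p = 0.0666), the smallest adjusted p of any member in that table. Adm had a log2 fold change of 0.65 ± 0.351 (the authors' adjusted p = 0.489) in D8 and 0.91 ± 0.348 (adjusted p = 0.103) in D10, both against ND.

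A call at 6 weeks without one at 8 or 10 weeks does not show that the times differ, so the differences of log2 fold changes were tested. The D8 and D10 libraries lie in another run of library numbers than D6, and the labels add PBS for D8 and D10 only. Time, run and PBS therefore cannot be told apart in the differences from D6. The test was a normal test with added variances and Benjamini-Hochberg adjustment over all genes. In D8 minus D6 the members' median difference was 0.22 and 27 of 31 were above 0, but 0 of 31 were called, where 0.0229% of all genes were. Of these members 4 had an unadjusted p under 0.05. In D10 minus D6 the median difference was 0.26 and 29 of 31 were above 0, with 0 of 31 called against 0.0115% of all genes and 5 members at an unadjusted p under 0.05. Slc16a3 differed by 1.09 between 10 and 6 weeks (95% interval 0.28 to 1.89, adjusted p = 0.491 by the normal test on the authors' values). Ak4 differed by 1.16 (0.30 to 2.02, adjusted p = 0.491 by the normal test on the authors' values). In D10 minus D8, 0 of 31 members and 0% of all genes were called, none of the members had an unadjusted p under 0.05, and the median difference was 0.04. The ND samples enter both sides, so the added variances are too large. With the ND variance removed, 7.18% of all genes were called in D8 minus D6 and 6.05% in D10 minus D6. In that setting 3 members were called higher at 8 than at 6 weeks (Pfkl, Slc16a3 and Ak4). At 10 weeks 5 members were called higher than at 6 weeks (these 3, Pfkfb3 and Pdk1). No member was called between 10 and 8 weeks with the ND variance removed either, where 0.502% of all genes were.

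Depletion of microglia in diabetic retina came with lower values of a smaller set of members. In D8 depleted against D8, 7 of 31 members fell (22.6%) and none rose, where 4.90% of all 16982 tested genes fell and 5.85% rose. Of the 10189 genes above the lowest 40 percent of level, 5.95% fell. The median log2 fold change was -0.21 over the members and 0.00 over all genes. The 7 were Ak4, Slc16a3, Pfkl, Bnip3, Pdk1, Pgam1 and Tpi1. Of the 9 HIF targets outside glycolysis 2 fell and 3 were above 0, and of the 8 genes from aldolase to pyruvate kinase 2 fell. All 7 were also among the 13 that fell in D6 against ND (53.8% of the 13), a comparison that shares no group with this one. Over all genes, 344 fell in both, which is 41.3% of the 832 that fell with depletion and 20.7% of the 1664 that fell at 6 weeks.

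In the authors' deposited table for D8 depleted against D8, Ak4 had a log2 fold change of -0.88 ± 0.264 (adjusted p = 0.0159) and Slc16a3 of -0.66 ± 0.229 (adjusted p = 0.0425). Pfkl was at -0.62 ± 0.162 (adjusted p = 0.00465), Bnip3 at -0.61 ± 0.148 (adjusted p = 0.0019) and Pdk1 at -0.61 ± 0.146 (adjusted p = 0.00165) in the authors' deposited table. Pgam1 was at -0.47 ± 0.135 (adjusted p = 0.0119) and Tpi1 at -0.37 ± 0.127 (adjusted p = 0.0421) per the authors' deposited table. Pgk1 was just outside the threshold at -0.34 ± 0.123 (adjusted p = 0.0556) in the authors' deposited table. With the length and GC trend removed, Pgk1 (adjusted p = 0.024) and Eno1 (-0.38 in place of -0.26, adjusted p = 0.0407) were called, recomputed from the authors' values. P4ha1, which fell at 6 weeks, was at 0.13 ± 0.137 with depletion, and Aldoc and Ldhb were at 0.17 and 0.13. The transporters Slc2a1 and Slc2a3 were at -0.21 ± 0.129 and -0.24 ± 0.125, and Hk1, Eno1, Pkm and Hk2 were between -0.29 and -0.04 without a call. The D8 and D8 depleted libraries lie in different runs of library numbers, so group and run cannot be told apart here.

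**Figure D2:**
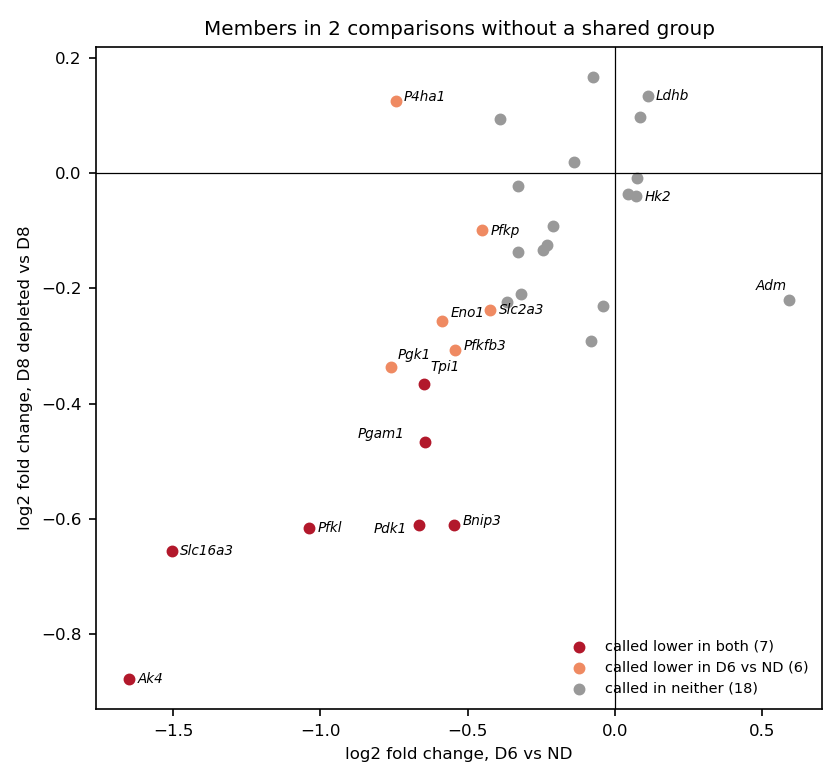
Log2 fold change of each of the 31 members in D8 depleted against D8 (vertical axis) and in D6 against ND (horizontal axis), 2 comparisons with no sample in common. The 7 dark red genes were called lower in both, the 6 orange genes in D6 against ND only, and the 18 grey genes in neither. Ak4 and Slc16a3 lie farthest to the lower left.

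D8 depleted against ND lies within 1 run of library numbers. There 12 members fell (38.7%), where 13.0% of all 18102 tested genes fell, and 1 member rose, where 15.5% of all genes rose. Of the 10861 genes above the lowest 40 percent of level, 16.6% fell. The median log2 fold change was -0.28 over the members and 0.02 over all genes. Of the 8 genes from aldolase to pyruvate kinase 5 fell, namely Pgam1 at -0.81 ± 0.189 (the authors' adjusted p = 0.000252), Pgk1 at -0.74 ± 0.175, Tpi1 at -0.64 ± 0.194, Eno1 at -0.61 ± 0.165 and Pkm at -0.50 ± 0.158. Ak4 was at -1.56 ± 0.333 (adjusted p = 5.75e-05) in the authors' deposited table and Slc16a3 at -1.22 ± 0.311 (adjusted p = 0.000838). Pfkl was at -0.99 ± 0.238 (adjusted p = 0.000377) and Pdk1 at -0.86 ± 0.154 (adjusted p = 1.07e-06) per the authors' deposited table. Bnip3 was at -0.82 ± 0.151 (the authors' adjusted p = 2.73e-06), Pfkfb3 at -0.58 ± 0.171 and Slc2a3 at -0.40 ± 0.122. The member that rose was Ankrd37, an ankyrin repeat protein and HIF target, at 0.45 ± 0.164 (adjusted p = 0.027), and its call was lost when a trend of fold change with transcript length and GC content was removed (adjusted p = 0.213, recomputed from the authors' values). Gapdh was at -0.35 (adjusted p = 0.0922) in the authors' deposited table and was called at -0.55 (adjusted p = 0.00559) with that trend removed. Ankrd37 means were 20.3 in D8 depleted and 18.7 in D8.

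After depletion and recovery in diabetic retina, no member was called against diabetic retina without depletion. In D10 repopulated against D10, 0 of 31 members were called, with 0.178% of all 16826 genes called higher and 0.267% lower. The member with an unadjusted p under 0.05 was P4ha1, at -0.37 ± 0.175 (unadjusted p = 0.0361) in the authors' deposited table. The members' median was -0.12 and 26 of 31 were below 0, including all 9 HIF targets outside glycolysis. Hk2 means were 77.2 in D10 repopulated and 103 in D10, a log2 fold change of -0.39 ± 0.297 (adjusted p = 0.934) per the authors' deposited table. Microglia markers were not back at the D10 level: 4 of 12 were called lower (median -0.94, 10 of 12 below 0), with the receptor Cx3cr1 at -1.96 ± 0.318 (adjusted p = 5.9e-06) and the complement gene C1qa at -1.34 ± 0.23 (adjusted p = 2.21e-05) in the authors' deposited table. This comparison also crosses the 2 runs of library numbers.

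Against ND, 8 members fell in D10 repopulated (25.8%) and none rose, where 4.19% of all 17495 tested genes fell and 7.49% rose. Of the genes above the lowest 40 percent of level, 5.49% fell. The 8 were Ak4, Slc16a3, P4ha1, Pfkl, Pgk1, Pgam1, Pdk1 and Hilpda. P4ha1 had the smallest adjusted p of the members there, at -0.74 ± 0.163 (adjusted p = 0.000203) in the authors' deposited table. Ak4 was at -1.05 ± 0.312 (adjusted p = 0.0106), Slc16a3 at -0.93 ± 0.291 (adjusted p = 0.0173) and Pfkl at -0.68 ± 0.223 (adjusted p = 0.025) in the authors' deposited table. Pgk1 was at -0.54 ± 0.164 (adjusted p = 0.0134), Pgam1 at -0.50 ± 0.177 (adjusted p = 0.0414), Pdk1 at -0.49 ± 0.144 (adjusted p = 0.00977) and Hilpda at -0.48 ± 0.169 (adjusted p = 0.045) per the authors' deposited table. The call of Hilpda was lost when the length and GC trend was removed (adjusted p = 0.0534, recomputed from the authors' values). Pfkfb3, which fell in D6 and D8 depleted, was at 0.21 ± 0.159 here, and Adm was at 0.86 ± 0.348 (adjusted p = 0.0869) in the authors' deposited table.

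The same depletion and recovery without diabetes gave no call among the members. In ND repopulated against ND, 0 of 31 members were called, with 0.0844% of all 15402 genes called higher and 0.0714% lower, and 3 members had an unadjusted p under 0.05. These were Hk2 at -0.71 ± 0.262, Slc16a3 at -0.69 ± 0.291 and Pdk1 at -0.29 ± 0.144, each with an adjusted p of 1. Ak4 was at -0.60 ± 0.312. Of the 31 members 25 were below 0 here, and the median was -0.12.

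**Figure D3:**
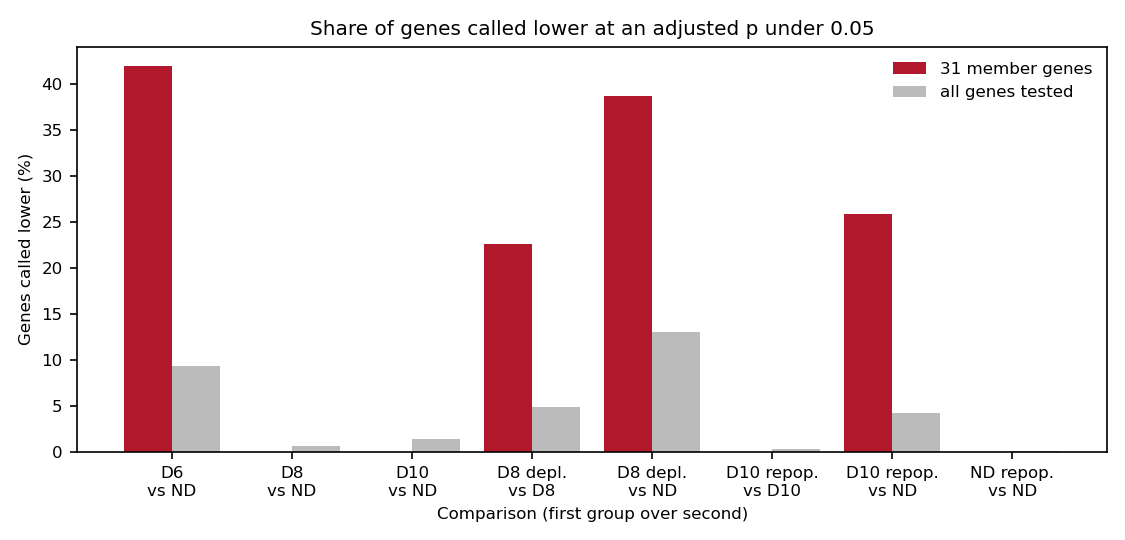
Share of genes called lower (percent, vertical axis, from 0) in the 8 comparisons for the 31 members (red) and for all tested genes (grey). The members' bars stand at 41.9, 22.6, 38.7 and 25.8% in D6 against ND, D8 depleted against D8, D8 depleted against ND and D10 repopulated against ND, and at 0 in the other 4 comparisons.

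Repopulation was set against depletion by differences of log2 fold changes. In D8 depleted over D8 minus D10 repopulated over D10, 0 of 31 members were called by the normal test, against 0.654% of all genes, and 3 members had an unadjusted p under 0.05. These were Pfkfb3 with a difference of -0.51 (95% interval -0.98 to -0.040), Bnip3 with -0.43 (-0.84 to -0.016) and P4ha1 with 0.49 (0.057 to 0.93). In D10 repopulated minus D8 depleted, both over ND, 0 members were called against 1.02% of all genes, and 2 members, Pfkfb3 and Bnip3, had an unadjusted p under 0.05. Pfkfb3 was higher by 0.80 (0.34 to 1.26, adjusted p = 0.0578 by the normal test on the authors' values). With the ND variance removed Pfkfb3 and Bnip3 were called higher and P4ha1 lower, beside 10.7% of all genes called in either direction. In D10 repopulated minus ND repopulated, both over ND, 0 members were called against 3.32% of all genes, and 2 members had an unadjusted p under 0.05. Hk2 was higher by 1.06 (0.33 to 1.78, adjusted p = 0.0946 by the normal test on the authors' values), and P4ha1 had a difference of -0.46 (-0.91 to -0.0032). With the ND variance removed both were called, beside 12.2% of all genes. In the effect of repopulation at D10 minus that in ND, 0 members were called, against 0.188% of all genes, and none had an unadjusted p under 0.05.

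Over the 8 comparisons, 16 of the 31 members were called at least once and 15 never. Pfkl, Pgam1, Pdk1, Slc16a3 and Ak4 fell in 4 comparisons, and Tpi1, Pgk1 and Bnip3 in 3. Slc2a3, Pfkfb3, Eno1 and P4ha1 fell in 2, and Pfkp, Pkm and Hilpda in 1. The 15 that were never called were Slc2a1, Hk1, Hk2, Gpi1, Pfkm, Aldoc, Gapdh, Eno2, Ldha, Ldhb, Slc16a1, Egln3, Adm, Vldlr and Ndrg1. They include both hexokinases, both lactate dehydrogenase subunits, the brain-type aldolase Aldoc and the neuronal enolase Eno2. Gapdh alone of these 15 was called with the length and GC trend removed, in D8 depleted against ND. Of the 4 comparisons with calls, 3 share the ND samples, so their lists are not independent of each other.

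**Figure D4:**
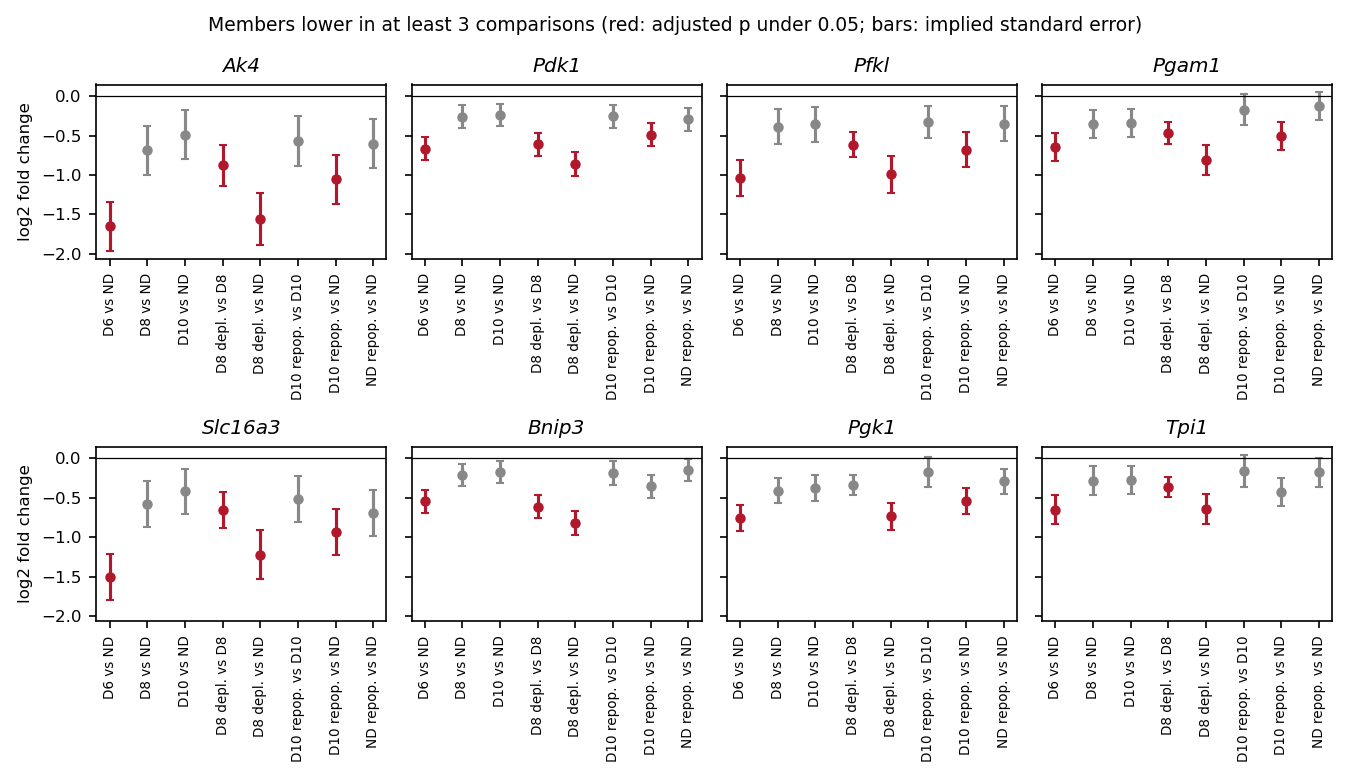
Log2 fold change (vertical axis) of the 8 members that fell in at least 3 comparisons, in each of the 8 comparisons (horizontal axis). Points are the authors' values, bars are 1 implied standard error to each side, and red marks an adjusted p under 0.05. Every point of these 8 genes lies below 0, and Ak4 and Slc16a3 reach the lowest values, -1.65 and -1.50, in D6 against ND.

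Other genes of the same pathways were called at shares that can be read only against those of all tested genes. In D6 against ND 14.1% of all genes rose and 9.31% fell, and of 31 other glycolytic isoforms and regulators 5 rose and none fell. Pfkfb2, the heart-type counterpart of Pfkfb3, was at 0.72 ± 0.14 (the authors' adjusted p = 1.2e-05), Eno3, the muscle enolase, at 0.63 ± 0.154 (adjusted p = 0.000647) and Pgam2, the muscle mutase, at 2.73 ± 0.577 (adjusted p = 6.6e-05) from a low level. In D8 depleted against D8, where 5.85% of all genes rose and 4.90% fell, 3 of 29 rose and 1 fell. Eno3 was at 1.07 ± 0.165 (adjusted p = 8.03e-08), the pigment epithelium lactate carrier Slc16a8 at 1.72 ± 0.452 (adjusted p = 0.00465), and the inositol transporter Slc2a13 at -0.54 ± 0.151 (adjusted p = 0.00923) per the authors' deposited table. In D8 depleted against ND 8 of 31 rose and 4 fell, beside 15.5% and 13.0% of all genes. In D10 repopulated against ND 3 of 29 rose and none fell, beside 7.49% and 4.19% of all genes. In D10 repopulated against D10 1 of 28 fell (0.267% of all genes). In D10 against ND 1 of 29 rose (5.59% of all genes), and in D8 against ND and ND repopulated against ND none was called. Some transporter genes of this list were called higher. Slc5a1, at a low level, was at 2.32 ± 0.494 in D10 and 1.79 ± 0.527 in D8 depleted, both against ND. Slc2a8 was at 0.53 ± 0.169 in D8 depleted against D8 and 0.71 ± 0.168 against ND. Slc2a4, at a low level, was at 1.405 ± 0.387 in D8 depleted and 1.05 ± 0.368 in D10 repopulated, both against ND.

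Of 16 genes for HIF subunits and oxygen sensing, 3 rose and 1 fell in D6 against ND, beside 14.1% and 9.31% of all genes. Hif1a and Epas1, the main alpha subunits, Arnt, their partner, and Vhl were called in none of the 8 tables, and in D6 against ND Hif1a was at -0.00 ± 0.146. Hif3a, whose product includes isoforms that dampen HIF activity, rose in 5 tables. In the authors' deposited tables it was at 1.35 ± 0.216 (adjusted p = 4.93e-08) in D6 and 1.34 ± 0.216 (adjusted p = 5.24e-08) in D10, both against ND. It was at 0.93 ± 0.263 (the authors' adjusted p = 0.00936) in D8 depleted against D8, and at 1.63 ± 0.229 (adjusted p = 2.74e-10) in D8 depleted and 1.96 ± 0.215 (adjusted p = 5.82e-17) in D10 repopulated, both against ND. Egln1, the main HIF prolyl hydroxylase, fell in D6 against ND, at -0.42 ± 0.161 (adjusted p = 0.041), and in D8 depleted against ND, at -0.43 ± 0.172 (adjusted p = 0.0438) in the authors' deposited table.

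Of 36 other HIF targets, 4 rose and 7 fell (19.4%) in D6 against ND, where 14.1% of all genes rose and 9.31% fell. In D8 against ND 1 rose (2.33% of all genes) and in D10 against ND 4 rose (5.59% of all genes). In D8 depleted against D8 2 rose and 2 fell (5.56%), beside 5.85% and 4.90% of all genes, and in D8 depleted against ND 5 rose and 7 fell (19.4%), beside 15.5% and 13.0%. In D10 repopulated against ND 6 rose and 4 fell (11.1%), beside 7.49% and 4.19% of all genes. D10 repopulated against D10 and ND repopulated against ND had no call in this list. Fam162a, a mitochondrial HIF target, fell in D6 at -0.69 ± 0.15 (the authors' adjusted p = 0.000133), in D8 depleted at -0.56 ± 0.16 (adjusted p = 0.00341) and in D10 repopulated at -0.61 ± 0.15 (adjusted p = 0.00113), each against ND. Angptl4, an inhibitor of lipoprotein lipase that is also induced by fatty acids and glucocorticoids, rose in each diabetic group against ND. Its log2 fold change was 2.92 ± 0.427 in D6, 1.88 ± 0.43 in D8 and 2.76 ± 0.427 in D10, and -0.19 ± 0.452 in ND repopulated, where it was not called. Vegfa, the angiogenic growth factor, fell in D8 depleted, at -0.40 ± 0.143 (the authors' adjusted p = 0.0482) against D8 and -0.56 ± 0.146 (adjusted p = 0.00105) against ND. In D6 against ND Vegfa was at -0.33 ± 0.136 (adjusted p = 0.0613) per the authors' deposited table.

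Genes of the branches that leave glycolysis were also read against all genes, of which 9.31% fell and 14.1% rose in D6 against ND. Of 10 pentose phosphate genes 3 fell and 1 rose there, and Rpe, the ribulose phosphate epimerase, was at -1.02 ± 0.215 (adjusted p = 6.39e-05) in the authors' deposited table. Rpe also fell in D8 depleted against D8, at -0.83 ± 0.223 (adjusted p = 0.00607), and in D10 repopulated against ND, at -0.80 ± 0.215 (adjusted p = 0.00386) per the authors' deposited table. Of 17 glycogen genes 5 fell and 3 rose in D6 against ND. In D8 depleted against ND 8 of the 17 fell (47.1%) and 2 rose, beside 13.0% and 15.5% of all genes. Pygb, the brain glycogen phosphorylase, was at -0.64 ± 0.115 (the authors' adjusted p = 1.95e-06) in D6, -0.50 ± 0.115 (adjusted p = 0.000459) in D10 and -0.37 ± 0.115 (adjusted p = 0.0158) in D10 repopulated, all against ND. Phka1, a phosphorylase kinase subunit, rose in D8 depleted against D8, at 0.93 ± 0.165 (adjusted p = 5.57e-06) in the authors' deposited table. Of 16 genes of pyruvate dehydrogenase, its regulators and the mitochondrial pyruvate carrier, 2 rose and 2 fell in D6 against ND and 1 rose and 1 fell in D8 depleted against D8, beside 5.85% and 4.90% of all genes. Mpc1, a subunit of the carrier, was at 0.39 ± 0.11 (the authors' adjusted p = 0.00371) and the kinase Pdk3 at -0.45 ± 0.16 (adjusted p = 0.0265) in D6 against ND. Pdk4, the fasting-induced counterpart of Pdk1, rose with depletion from a low level, at 1.43 ± 0.464 (the authors' adjusted p = 0.0274) against D8. Pdpr, a regulatory subunit of the pyruvate dehydrogenase phosphatase, fell with depletion, at -0.89 ± 0.269 (the authors' adjusted p = 0.0166) against D8.

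Markers of retinal cell types were read beside these results, in the same tables, and no marker with a test had a larger group mean of 0. Listed markers without a test were not checked for this. In D6 against ND, where 9.31% of all genes fell and 14.1% rose, 4 of 10 Muller glia markers fell and 1 rose (median -0.27). There 4 of 9 ganglion cell markers fell, and 3 of 12 rod markers fell and 1 rose (median -0.03). Of the vessel markers in D6 against ND, 3 of 10 for endothelium fell and 1 rose, and 2 of 7 for pericytes fell. Markers of other tissue moved in D6 against ND as well. Of these, 1 of 6 erythroid markers fell, and 2 of 14 lens and 1 of 10 pigment epithelium markers rose. In D10 against ND 4 of 10 Muller glia markers fell and 1 rose (median -0.27). There 1.41% of all genes fell and 5.59% rose. Of the vessel markers in D10 against ND, 3 of 10 for endothelium fell and 1 rose, and 3 of 7 for pericytes fell. In D8 against ND none of the 10 Muller glia markers was called (median -0.27). In D8 depleted against D8 all 12 microglia markers fell (median -4.22), 4 of 10 Muller glia, 3 of 9 ganglion cell (median -0.34) and 3 of 8 cone markers fell, beside 4.90% of all genes, and 1 of 12 rod markers fell and 1 rose. The microglial receptor Cx3cr1 was at -6.98 ± 0.846 there. Markers of other tissue moved too in D8 depleted against D8. There 6 of 10 pigment epithelium and 4 of 5 erythroid markers rose, beside 5.85% of all genes, and 10 of 13 lens markers fell. In D8 against ND 11 of 14 lens and 4 of 6 erythroid markers fell, beside 0.583% of all genes. In D10 against ND 5 of 6 erythroid markers and no lens marker fell, beside 1.41% of all genes. In D8 depleted against ND all 12 microglia, 5 of 10 Muller glia and all 14 lens markers fell, beside 13.0% of all genes. Of 9 ganglion cell markers 5 fell there (55.6%) and 1 rose (median -0.41), where 15.5% of all genes rose. In D10 repopulated against ND 6 of 12 microglia and 1 of 10 Muller glia markers fell, beside 4.19% of all genes. The sum of the larger group means over the 8 tables was between 16050 and 17740 for rods, between 1482 and 1659 for Muller glia and between 26.6 and 38.4 for microglia. Their part in the members' results was not tested.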

How the data were processed

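Stranded poly(A) libraries from mouse retina were sequenced as paired reads of 100 bases, per the labels' protocols. The submitters' processing notes name bcl2fastq and GRCm39. Not given in the sources used here are the aligner, the counter, the statistical test and the scaling of libraries. Each of the 8 tables that the authors deposited compares 2 groups over 25655 genes. From each, the deposited log2 fold change, p-value and FDR p-value were taken as they stood. The deposited signal (maximum group mean, per the file headers) carries no unit. The FDR values matched a Benjamini-Hochberg adjustment over the tested genes within 0.000489. The table of D10 and D10 repopulated had D10 as its first group, so its fold changes were multiplied by minus 1.

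Genes were called at an FDR p-value under 0.05. Standard errors were computed from the deposited p with normal quantiles, with medians between 0.141 and 0.168 log2 over all genes of a table. Depth is unknown, since no values per sample were used. Group means were recovered where the larger mean could be tied to a group, by the same value in 2 tables or by the sign of a log2 fold change of at least 0.1 in size. In 42308 of 42308 means that could be checked, the group fitted the sign. Differences between 2 comparisons were tested with a two-sided normal test, with the ND variance left in or removed. Of these steps, only the implied standard errors and the normal test with added variances were tried on simulated data, without a shared group. Group mean recovery, the setting without the ND variance and the trend fit named below were not tried in this way. The members and the pathway and marker lists were chosen with earlier results of these data known. Every member is named, and in each comparison the called members are given in full, up to 12 by size. Of each pathway list, genes were named from the 3 called ones with the smallest p in a comparison, beside Hif1a, Epas1, Arnt, Vhl, Egln1 and Vegfa. Results were recomputed at FDR thresholds of 0.01 and 0.10, with a minimum size of 0.5 on the log2 scale, without the lowest 40 percent of level and, chosen after seeing the data, after removal of a trend with transcript length and GC content. Length and GC content came from a GRCm38 annotation, matched by Ensembl number for 25600 genes (99.8%). The computing environment was Python 3.11.15, with pandas 2.3.3, numpy 2.4.6, matplotlib 3.10.9 and scipy 1.17.1.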

Additional observations from a re-analysis of the deposited data

Results flagged for a closer look

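Differences of log2 fold changes were scanned for the 31 members and for the pathway genes picked by the naming rule above. The other genes of the pathway lists were not scanned, and the picked genes were chosen partly by small p in these same data. Of those scanned, 6 pathway genes and none of the members passed the normal test with Benjamini-Hochberg adjustment over all genes. Angptl4 was higher over ND in D10 repopulated than in ND repopulated by 3.64 on the log2 scale (95% interval 2.43 to 4.86, adjusted p = 2.14e-06 on the authors' values), with log2 fold changes of 3.45 and -0.19. Hif3a differed in the same way by 2.20 (1.59 to 2.80, adjusted p = 2.63e-09 on the authors' values), with 1.96 and -0.23. These 2 differences set diabetic against non-diabetic retina after the same depletion and recovery, where 3.32% of all genes were called.

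Between D10 repopulated and D8 depleted, both over ND, 4 of the scanned genes differed, where 1.02% of all genes were called. Eno3 was lower by 0.95, a difference of -0.95 (-1.39 to -0.51, adjusted p = 0.00927 on the authors' values), with 0.04 in D10 repopulated and 0.99 in D8 depleted. Phka1 had a difference of -0.76 (-1.19 to -0.34, adjusted p = 0.0446 on the authors' values), with 0.45 and 1.22. Pdpr had a difference of 1.20 (0.54 to 1.85, adjusted p = 0.041 on the authors' values), with 0.10 and -1.10. Slc2a13 had a difference of 0.67 (0.30 to 1.04, adjusted p = 0.0412 on the authors' values), with 0.10 and -0.57. The ND samples enter both sides of each difference, so the added variances are too large. Time of diabetes differs between these 2 groups as well as depletion.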

How the results depend on the processing

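Of the 41 member calls, 29 held at an FDR p-value under 0.01, 32 had an absolute log2 of at least 0.5, and 39 held when a trend with transcript length and GC content, chosen after seeing the data, was removed, which also gave 5 further calls (Pkm and Hilpda in D6 against ND, Pgk1 and Eno1 in D8 depleted against D8 and Gapdh in D8 depleted against ND). No result was reversed. The counts that moved by over 1.5 times were few. At a threshold of 0.01 the called members were 3 in place of 7 in D8 depleted against D8, and 2 in place of 8 in D10 repopulated against ND. At 0.10, 1 member in place of 0 was called in D10 against ND, 1 in D10 repopulated minus ND repopulated and 1 in D10 repopulated minus D8 depleted. With the lowest 40 percent of level left out, 1 was called in D10 repopulated minus D8 depleted. With the ND variance removed, 3 members in place of 0 were called in D8 minus D6 (7.18% of all genes). Under that setting 5 were called in D10 minus D6 (6.05%). There were 2 in D10 repopulated minus ND repopulated (12.2%) and 3 in D10 repopulated minus D8 depleted (10.7%). The cause of these moves was not tested, apart from the construction of the last, which lowers the error. No paired analysis was possible because the deposited tables hold no values per sample, and leaving out single samples was not run for the same reason. Depth and the spread between single samples were not analysed here.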

Other observations

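Eno1b, a second enolase entry at a larger group mean of 1.93 in ND, had log2 fold changes of -0.80 in D6, -0.65 in D8 and -0.70 in D10, each against ND, beside -0.59, -0.36 and -0.40 for Eno1. Hbb-bs, a haemoglobin gene read from blood cells, was lower in D8 and D10 than in ND, at -3.64 ± 0.77 and -3.45 ± 0.77, and higher in D10 repopulated than in D10, at 3.84 ± 0.71. Hmox1, the haem oxygenase, rose in D6 and D10 against ND, at 2.91 ± 0.562 (the authors' adjusted p = 1.11e-05) and 1.99 ± 0.563 (adjusted p = 0.00838), and was at 2.16 ± 0.563 (adjusted p = 0.0742) in ND repopulated against ND. Eno1b and Hbb-bs were chosen after their values were seen.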
